A study of Mus musculus with 48 samples.

Results

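The urea cycle and ammonia handling genes of the liver were named as a set of 9, namely Nags, Cps1, Otc, Ass1, Asl, Arg1, Glul, Glud1 and Gls2, and every probe set that carried one of these symbols was taken. This gave 13 of the 45037 probe sets tested. Of these, 12 carried 1 symbol alone and covered 8 genes. The remaining probe set carried both Ass1 and Gm5424, the latter annotated as a transcribed pseudogene, so that its signal cannot be split between them, and it is written Ass1/Gm5424. Gls2 had no probe set under that symbol in the annotation used and is only named.

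The study asked how exchanging dietary carbohydrate for protein affects the liver of obese, glucose intolerant mice. Liver RNA was hybridised to 1 Affymetrix array per mouse, for 48 male C57BL/6J mice, 6 to 7 weeks of age at arrival, that had all received 2 weeks of acclimation and then 10 weeks of a high-fat diet with a low protein to carbohydrate ratio (L-P/C-HF). These mice were picked for the highest glucose area in a tolerance test, so they are not a random draw of the strain. L-P/C-HF supplied 15% of energy as protein, 30% as carbohydrate and 55% as fat, and H-P/C-HF supplied 30%, 15% and 55%. The 4 groups held 12 mice each: L-P/C-HF continued for 2 days (2-d) or 4 weeks (4-wk), and H-P/C-HF for 2-d or 4-wk. H-P/C-HF 2-d replicate 1 was left out for the quality of its array, so 47 arrays were used and its group had 11 mice. The values are deposited RMA levels on the log2 scale, where a difference of 1 is a doubling. Levels of different probe sets are not comparable with each other.

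The urea cycle turns ammonia, which is toxic, into urea for excretion. In the mitochondria of periportal hepatocytes, Nags makes N-acetylglutamate, the obligate activator of Cps1, which fixes ammonia as carbamoyl phosphate, and Otc joins this to ornithine to give citrulline. In the cytosol, Ass1 condenses citrulline with aspartate, Asl splits the product into arginine and fumarate, and Arg1 releases urea and returns ornithine. Glud1 and Gls2 free ammonia from glutamate and glutamine, and Glul, in a thin layer of perivenous hepatocytes, captures ammonia that has escaped the cycle as glutamine. The amounts of the cycle enzymes are known to follow protein intake.

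As a check of the tissue label, the hepatocyte genes of the array, such as Alb, Ttr and Apoa1, had group means between 14.40 and 14.61, and the probe sets of Acta1 of skeletal muscle averaged 6.63, of Umod of kidney 5.09 and of Adipoq of adipocytes 4.82. Since probe sets cannot be set against each other, each of these values describes its own probe set only. The mean correlation of an array with the others lay between 0.976 and 0.991. Some arrays stood apart on these genes. L-P/C-HF 2-d replicate 9 lay below every other mouse of its group on 5 of the 13 probe sets, L-P/C-HF 4-wk replicate 12 on 6, and the array left out on 8. L-P/C-HF 2-d replicate 1 lay above the rest on 2. Member differences that moved by over 1.5 times without replicate 9 of L-P/C-HF 2-d are given with and without it.

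The promoter sequence of Ass1 is shown because the Ass1/Gm5424 probe set was the member with a passing diet difference, and that of Glul because its probe sets lay on the other side of zero. Both are RefSeq sequence of GRCm38.p6, plus strand, the 250 bases before the annotated gene start, at chr2:31470020-31470269 for Ass1 and chr1:153899679-153899928 for Glul, with matches to the searched motifs in capitals.
Ass1: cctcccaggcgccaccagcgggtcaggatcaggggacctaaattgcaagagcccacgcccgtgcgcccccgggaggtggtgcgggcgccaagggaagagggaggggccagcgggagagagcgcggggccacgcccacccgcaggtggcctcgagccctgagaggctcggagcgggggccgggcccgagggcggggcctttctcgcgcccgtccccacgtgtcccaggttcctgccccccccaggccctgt
Glul: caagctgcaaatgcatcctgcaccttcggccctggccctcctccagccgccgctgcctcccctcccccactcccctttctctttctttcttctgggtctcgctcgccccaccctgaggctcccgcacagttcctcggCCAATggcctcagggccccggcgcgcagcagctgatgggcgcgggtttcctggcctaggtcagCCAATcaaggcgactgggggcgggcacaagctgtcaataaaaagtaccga
Windows were held for 5 of the 9 genes (Ass1, Glud1, Glul, Nags and Otc). Both strands of the windows, with 50 bases after the start added, were searched for TTGCNNAA (C/EBP), TGACGTCA and its part TGACG (cAMP response element), CAAAGTCCA (HNF4 type), TGTTCT (part of the glucocorticoid element), TATAAA and CCAAT. Glul held 2 copies of CCAAT, with first bases at -113 and -50 from the start, a motif found in 37.4% of 32817 promoter windows of this length. Nags held TGACG once, on the minus strand, a motif found in 20.8%, and the Ass1, Glud1 and Otc windows held none of these letters. The Otc window was set on another start than that of the gene table and reaches further into the gene. The G and C content of the 250 bases was 75.6% for Ass1 and 64.8% for Glul. A match is not a bound site, and a missing one says only that the letters are absent from the window.

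The question at 2-d was whether the liver had changed its ammonia handling genes within the first days on more protein and less carbohydrate. The paper reports that H-P/C-HF mice also took in less energy and gained less weight over that time. The parts of protein, carbohydrate and intake cannot be told apart here. Ass1/Gm5424 rose 1.30-fold, and it was the 1 member probe set of 13 to pass at an adjusted p of 0.05 in limma, against 6 of all 45037 probe sets (0.0133%). The members were chosen with earlier results of these data known. The counts of members here and below therefore describe them and do not test them as a set. At 2-d 9 of the 13 differences were positive, as were 53.3% over all probe sets, and the member median was 0.11 on the log2 scale against 0.01 over all. At an unadjusted p under 0.05, 5 members were higher and none was lower, where 1.90% of all probe sets were higher. These were Ass1/Gm5424, Asl, Cps1, Arg1 and the dimmest of 3 Otc probe sets. The brighter Otc probe sets had an unadjusted p of 0.0904 and 0.218, and the probe set of Ass1 alone 0.271 (limma). By the brightest probe set under the symbol alone, only Asl, Cps1 and Arg1 were thus among them. By its own test and threshold, the paper names Ass1 and Asl among the genes regulated at 2-d. Bulk tissue was measured, and more cells of a type cannot be told apart from more RNA per cell.

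**Figure D1:**
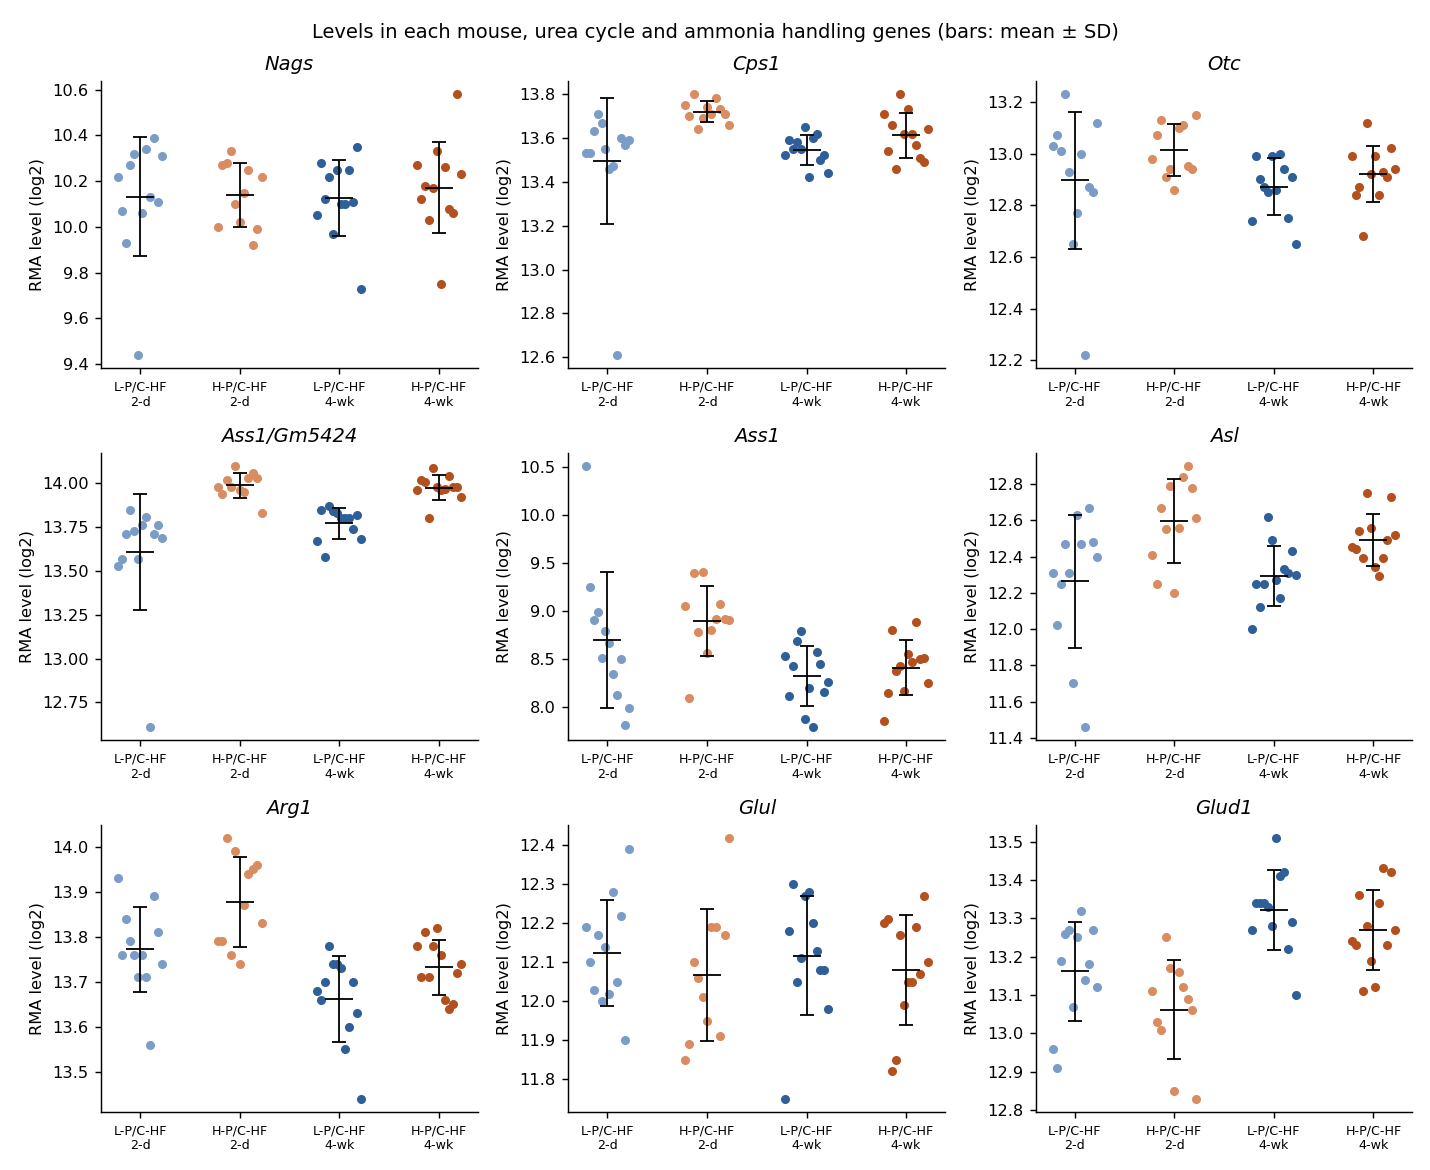
RMA level (log2, vertical axis, a separate scale in each panel) of each mouse in the 4 groups, for 8 genes by the brightest probe set under the symbol alone and for the Ass1/Gm5424 probe set, with the mean ± SD as bars. The H-P/C-HF points of Ass1/Gm5424 lay almost wholly above the L-P/C-HF points at both durations, and 1 L-P/C-HF 2-d mouse lay far down on Cps1, Otc, Ass1/Gm5424 and Asl.

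The Ass1/Gm5424 level in L-P/C-HF 2-d mice ran from 12.61 through a median of 13.71 to 13.85. In H-P/C-HF 2-d mice it ran from 13.83 through 13.98 to 14.10. Of the 11 mice on H-P/C-HF, 10 lay above every L-P/C-HF mouse, and the one at 13.83 lay below the highest L-P/C-HF mouse alone. The difference was 0.38 on the log2 scale (SE 0.07, 95% interval 0.23 to 0.53, limma, adjusted p = 0.0272). The low value of 12.61 was L-P/C-HF 2-d replicate 9, with the other mice of that group between 13.53 and 13.85. Without replicate 9 the difference was 0.29 (SE 0.04, adjusted p = 7.66e-05, limma), smaller but with less spread. The call was lost on centring each array on its median (adjusted p = 0.0544), with the replicate number as a block (0.0721), without L-P/C-HF 2-d replicate 1 (0.0511), in a separate fit of the 2-d groups (0.834) and in an ordinary ANOVA (0.9998), and 10 of 15 alternatives kept it.

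Argininosuccinate lyase, the next enzyme, had the second largest difference. Asl ran from 11.46 through 12.36 to 12.67 in L-P/C-HF 2-d mice and from 12.20 through 12.61 to 12.90 in H-P/C-HF 2-d mice. The groups overlapped widely, and 4 of the 11 on H-P/C-HF exceeded every L-P/C-HF mouse. The difference was 0.33 (SE 0.10, 95% interval 0.14 to 0.53, unadjusted p = 0.00133, limma), with an adjusted p of 0.867.

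Cps1, the entry step and the main control point of the cycle, ran from 12.61 through 13.56 to 13.71 in L-P/C-HF 2-d mice. In H-P/C-HF 2-d mice it ran from 13.64 through 13.71 to 13.80. All 11 on H-P/C-HF exceeded the median of L-P/C-HF, and 5 exceeded every L-P/C-HF mouse. The difference was 0.23 (SE 0.07, unadjusted p = 0.0013, adjusted p = 0.867, limma). It was 0.15 (SE 0.04, adjusted p = 0.519) without replicate 9, whose level of 12.61 was the lowest.

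Arginase, which closes the cycle, differed less. Arg1 ran from 13.56 through 13.76 to 13.93 in L-P/C-HF 2-d mice and from 13.74 through 13.87 to 14.02 in H-P/C-HF 2-d mice, and 9 of the 11 on H-P/C-HF exceeded the median of L-P/C-HF. The difference was 0.10 (SE 0.04, unadjusted p = 0.0144, adjusted p = 0.9998, limma).

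Otc, the mitochondrial citrulline-forming enzyme, was read by 3 probe sets. The brightest ran from 12.22 through 12.96 to 13.23 in L-P/C-HF 2-d mice and from 12.86 through 12.98 to 13.15 in H-P/C-HF 2-d mice, with nearly the same medians, and its difference was 0.12 (95% interval -0.02 to 0.25). The second gave 0.11 (95% interval -0.07 to 0.28). Without L-P/C-HF 2-d replicate 9 these were 0.06 and 0.07. The dimmest ran from 7.63 through 8.38 to 8.76 and from 8.26 through 8.67 to 8.91, a difference of 0.29 (SE 0.10, unadjusted p = 0.00613, adjusted p = 0.9998, limma). All 3 Otc estimates were positive and none passed.

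Nags, which sets the activator of Cps1, did not separate the diets at 2-d. Its levels ran from 9.44 through 10.18 to 10.39 in L-P/C-HF and from 9.92 through 10.15 to 10.33 in H-P/C-HF mice, and the difference of 0.01 had a 95% interval of -0.16 to 0.17. The dim Ass1 probe set that carries Ass1 alone ran from 7.81 through 8.59 to 10.51 and from 8.09 through 8.91 to 9.40. Its difference was 0.20 with an interval of -0.16 to 0.56, which holds both zero and the size read by Ass1/Gm5424. The top value of 10.51 was L-P/C-HF 2-d replicate 1, which stood 2.00 above the median of the other mice of its group.

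The genes that free or recapture ammonia lay on the other side of zero. Glul, glutamine synthetase, gave -0.06 (95% interval -0.18 to 0.07) and -0.10 (-0.24 to 0.04) by its 2 probe sets. Glud1, glutamate dehydrogenase, ran from 12.91 through 13.19 to 13.32 in L-P/C-HF and from 12.83 through 13.09 to 13.25 in H-P/C-HF mice by the brighter probe set. Its differences were -0.10 (-0.20 to 0.00) and -0.10 (-0.21 to 0.02). No Glul or Glud1 probe set passed, and each of these 4 intervals included zero.

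**Figure D2:**
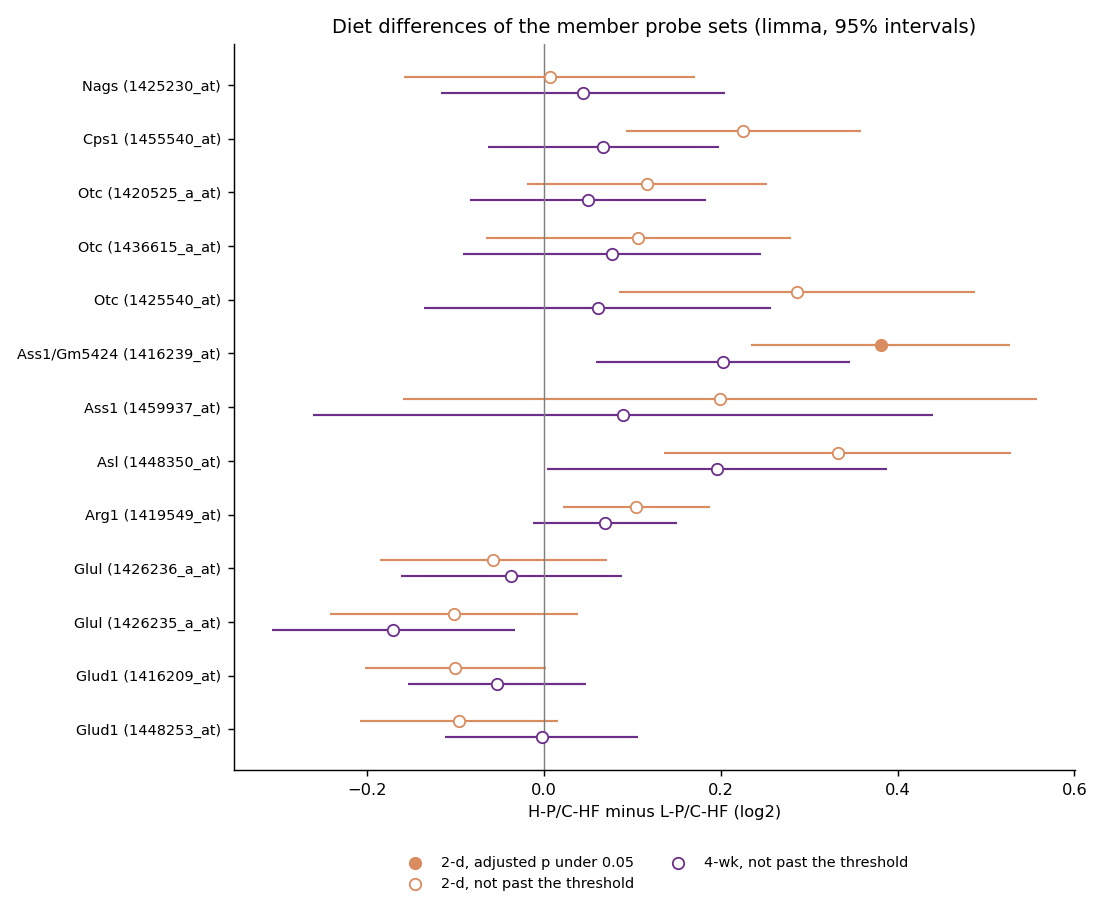
Diet difference, the H-P/C-HF level less the L-P/C-HF level on the log2 scale (horizontal axis), for the 13 member probe sets at 2-d and at 4-wk, with 95% intervals from limma and filled points where the adjusted p was under 0.05. The 1 filled point is Ass1/Gm5424 at 2-d (0.38), the points of Cps1, Otc, Ass1 and Asl lie further from zero at 2-d than at 4-wk, and Glul and Glud1 lie below zero at both durations.

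After 4-wk on the diets no member passed, nor did any of the 45037 probe sets (0%), while 2.76% of them had an unadjusted p under 0.05 in limma and an ordinary ANOVA also called no member. At 4-wk 9 of 13 member differences were positive, against 42.9% over all probe sets, and the member median was 0.06 against -0.01. At an unadjusted p under 0.05, Ass1/Gm5424 and Asl were higher (0.957% of all probe sets were) and the dimmer Glul probe set was lower (1.80% were). The paper, by its own test and threshold, lists Ass1 among the genes of its 4-wk analysis of transcription regulators.

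Ass1/Gm5424 ran from 13.58 through 13.80 to 13.87 in L-P/C-HF 4-wk mice and from 13.80 through 13.98 to 14.09 in H-P/C-HF 4-wk mice. Of the 12 on H-P/C-HF, 11 exceeded every L-P/C-HF mouse. The difference was 0.20 (SE 0.07, 95% interval 0.06 to 0.35, unadjusted p = 0.00665, adjusted p = 0.999, limma). The model shares 1 estimate of the spread over the 4 groups, and the SD was 0.33 in L-P/C-HF 2-d mice and between 0.07 and 0.09 in the other groups.

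Asl at 4-wk ran from 12 through 12.29 to 12.62 in L-P/C-HF and from 12.29 through 12.47 to 12.75 in H-P/C-HF mice, with all 12 on H-P/C-HF above the median of L-P/C-HF. Its difference was 0.20 (SE 0.10, unadjusted p = 0.0456, adjusted p = 0.999, limma). The dimmer Glul probe set ran from 11.54 through 12.10 to 12.50 and from 11.62 through 11.87 to 12.16, a difference of -0.17 (SE 0.07, unadjusted p = 0.0162, adjusted p = 0.999). The brighter Glul probe set gave -0.04 with an interval of -0.16 to 0.09, so the probe sets of this gene did not give the same size. For the other members the 4-wk differences were 0.07 for Cps1 (-0.06 to 0.20), 0.05 for Otc (-0.08 to 0.18), 0.07 for Arg1 (-0.01 to 0.15), 0.04 for Nags (-0.12 to 0.21) and -0.05 for Glud1 (-0.15 to 0.05).

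No member had a diet difference at 4-wk that was shown to differ from that at 2-d. The difference between them had an adjusted p under 0.05 for none of the 45037 probe sets in limma (0%), an unadjusted p under 0.05 for none of the 13 members, and such a p for 1.63% of all. The 4-wk minus 2-d value was -0.18 for Ass1/Gm5424 (95% interval -0.38 to 0.03), -0.16 for Cps1 (-0.34 to 0.03), -0.14 for Asl (-0.41 to 0.14) and -0.23 for the dimmest Otc probe set (-0.51 to 0.06). Without L-P/C-HF 2-d replicate 9 it was -0.09 for Ass1/Gm5424, -0.08 for Cps1, -0.06 for Asl and -0.24 for that Otc probe set.

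Averaged over both durations, Ass1/Gm5424 rose by 0.29 on the log2 scale, or 1.22-fold (SE 0.05, 95% interval 0.19 to 0.39, adjusted p = 0.00571, limma), as the 1 of 13 members called against 23 of 45037 probe sets (0.0511%). This call was kept in 13 of 13 alternatives, with adjusted p between 2.19e-07 and 0.0142. Asl came next at 0.26 (SE 0.07, unadjusted p = 0.000321, adjusted p = 0.227, limma). It passed under cyclic loess normalization alone (adjusted p = 0.0435), 1 of 13 alternatives.

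The averaged difference was 0.15 for Cps1 (SE 0.05, unadjusted p = 0.00265), 0.09 for Arg1 (SE 0.03, unadjusted p = 0.00407) and 0.08 for Otc (SE 0.05, unadjusted p = 0.0841), the last being 0.05 without L-P/C-HF 2-d replicate 9. The dimmest Otc probe set gave 0.17 (SE 0.07, unadjusted p = 0.0165, limma). The averaged difference was -0.14 for the dimmer Glul probe set (SE 0.05, unadjusted p = 0.00761) and -0.08 for the brighter Glud1 probe set (SE 0.04, unadjusted p = 0.0382). It was -0.05 for the brighter Glul probe set (unadjusted p = 0.298) and -0.05 for the dimmer Glud1 probe set (unadjusted p = 0.214). None of these passed the adjustment. In all, 5 positive and 2 negative probe sets of the 13 members had an unadjusted p under 0.05, against 1.99% and 2.57% over all probe sets.

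The carriers, transporters and enzymes that feed the cycle were read as a list of 50 genes, 47 of them matched. The list was chosen with earlier results of these data known, and the paper itself names Got1 among its regulated genes. The counts below therefore describe the list and do not test it. At 2-d, 30 were positive and 17 negative, where 53.2% of all 18193 genes were positive, and the median was 0.04 against 0.01 over all. Of the list, 10 positive and 1 negative gene had an unadjusted p under 0.05, against 2.04% and 1.62% of all genes, and 1 passed, where 0.011% of all genes passed with a rise. This was Slc7a2, a carrier of arginine and other cationic amino acids, whose mean level went from 12.16 to 12.74, a rise of 0.58 (SE 0.11, adjusted p = 0.0272, limma). Averaged over both durations 4 passed, all higher, as did 0.044% of all genes: Oat, which turns ornithine into glutamate semialdehyde, by 0.36 (adjusted p = 0.00571), Slc7a2 by 0.38 (adjusted p = 0.0226), Slc38a4, an importer of neutral amino acids, by 0.18 (adjusted p = 0.0434) and Got1, the cytosolic aminotransferase that makes aspartate, by 0.48 (adjusted p = 0.0489). The mitochondrial ornithine carrier Slc25a15, which serves Otc, was not among them, with 0.05 at 2-d (SE 0.06) and 0.06 at 4-wk (SE 0.06).

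**Figure D3:**
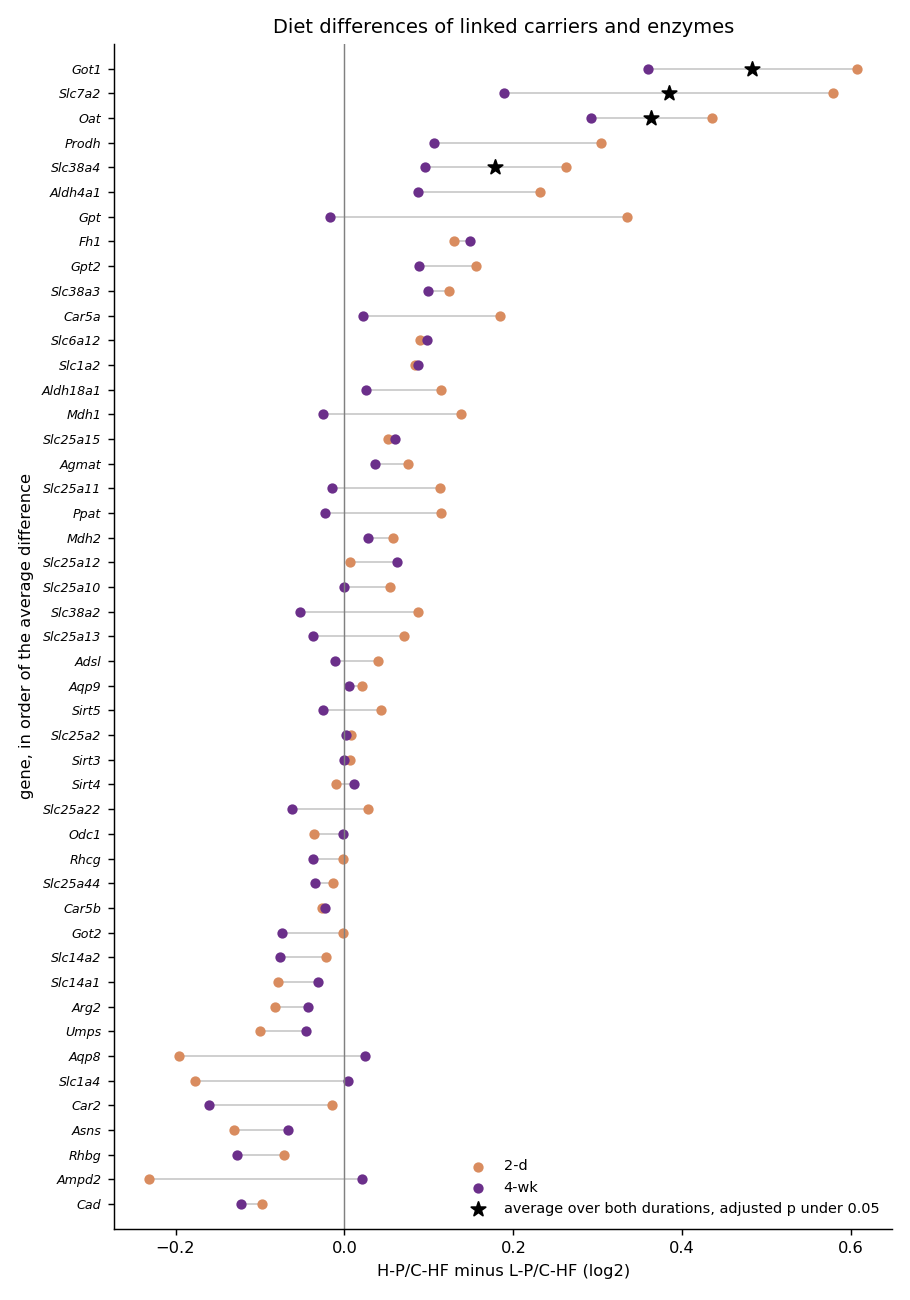
Diet difference, the H-P/C-HF level less the L-P/C-HF level on the log2 scale (horizontal axis), at 2-d and at 4-wk for the 47 matched carriers, transporters and linked enzymes, 1 gene per line, with a star at the average where its adjusted p was under 0.05. The starred genes are Got1 (0.48), Slc7a2 (0.38), Oat (0.36) and Slc38a4 (0.18).

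None of 23 matched genes in the list of regulators with a known link to the cycle passed in a diet comparison. The smallest unadjusted p at 2-d was 0.0089 for Tat, at 0.34 (SE 0.13, limma). Tat is a glucocorticoid-responsive aminotransferase and not itself a regulator. Gcgr, the glucagon receptor, was at -0.13 (SE 0.06, unadjusted p = 0.0414). Of 15 periportal markers 11 were positive at 2-d with a median of 0.12, and of 22 pericentral markers 17 were positive with a median of 0.06, against the same 53.2% of all genes, with none called at 2-d. Averaged over both durations 2 pericentral markers passed, Oat as above and Cyp7a1, the rate-limiting enzyme of bile acid synthesis, higher by 0.86 (adjusted p = 0.0342, limma). The 10 hepatocyte identity genes gave 5 positive and 5 negative values with a median of 0.00. All 16 Kupffer cell and macrophage markers were negative at 2-d (median -0.11) and 15 of 16 at 4-wk (median -0.31), where 46.8% and 59.7% of all genes were negative, and none was called. At an unadjusted p under 0.05, 7 of the 16 were lower at 4-wk and 8 averaged over both durations, against 2.16% and 3.01% of all genes. Their mean level ran from 7.91 to 8.98 in L-P/C-HF and 8.01 to 8.68 in H-P/C-HF mice at 2-d, and from 8.63 to 9.85 and 8.07 to 9.39 at 4-wk. Their part in the member values was not tested.

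Between 2-d and 4-wk, Glud1 rose in both diets while Arg1 and the dimmest Otc probe set fell in H-P/C-HF mice. In L-P/C-HF mice 1 of 13 members passed, against 3096 of 45037 probe sets (6.87%), and in H-P/C-HF mice 3 of 13, against 3012 (6.69%). Longer feeding cannot be told apart from greater age, another day of death or a further glucose tolerance test. The 4-wk mice were older, were killed on other days and had that test after an overnight fast. RNA measures also moved with duration. The 3′ minus 5′ signal of the Gapdh and beta-actin control probe sets, a sign of RNA quality in which higher means more truncated targets, averaged 0.478 in L-P/C-HF and 0.477 in H-P/C-HF mice at 2-d and 0.244 and 0.273 at 4-wk. With that measure as a covariate none of the member calls was kept in either diet, and all called probe sets fell to 464 and 622. Since the measure itself differed between the durations, that fit cannot separate RNA quality from duration.

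Glud1 ran from 12.91 through 13.19 to 13.32 in L-P/C-HF 2-d mice and from 13.10 through 13.34 to 13.51 in L-P/C-HF 4-wk mice. Of 12 mice at 4-wk, 7 lay above every 2-d mouse. The rise was 0.16 (SE 0.05, adjusted p = 0.0400, limma), and 0.02 with the RNA measure as a covariate (adjusted p = 0.991). This call was also lost without L-P/C-HF 2-d replicate 1, at 0.14 (adjusted p = 0.0945). In H-P/C-HF mice it ran from 12.83 through 13.09 to 13.25 at 2-d and from 13.11 through 13.26 to 13.43 at 4-wk, with all 12 mice above the 2-d median. That rise was 0.21 (SE 0.05, adjusted p = 0.00645, limma), and 0.09 with the covariate (adjusted p = 0.612). The second Glud1 probe set gave 0.06 and 0.15 and passed in neither diet.

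Arg1 in H-P/C-HF mice ran from 13.74 through 13.87 to 14.02 at 2-d and from 13.64 through 13.73 to 13.82 at 4-wk, with all 12 mice below the 2-d median. It fell by 0.14 on the log2 scale (SE 0.04, adjusted p = 0.0206, limma), and the value was -0.11 with the covariate (adjusted p = 0.339). The call was also lost with the left-out array included (adjusted p = 0.0996) and with centring on array medians (0.0572). In L-P/C-HF mice it was -0.11 (adjusted p = 0.0986), and it passed there without L-P/C-HF 2-d replicate 9, at -0.13 (adjusted p = 0.0278).

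The dimmest Otc probe set in H-P/C-HF mice ran from 8.26 through 8.67 to 8.91 at 2-d and from 7.88 through 8.20 to 8.64 at 4-wk. It fell by 0.42 on the log2 scale (SE 0.10, adjusted p = 0.00476, limma), and the value was -0.30 with the covariate (adjusted p = 0.239). The brightest Otc probe set gave -0.09 (95% interval -0.23 to 0.04), so the fall was not read by each probe set of the gene. Ass1/Gm5424 did not pass in either diet, with 0.17 in L-P/C-HF (95% interval 0.02 to 0.31) and -0.01 in H-P/C-HF mice (-0.16 to 0.13). The dim probe set of Ass1 alone gave -0.38 in L-P/C-HF (-0.73 to -0.03) and -0.49 in H-P/C-HF mice (-0.85 to -0.13). Its unadjusted p was 0.0350 and 0.00863 and its adjusted p 0.233 and 0.0935 (limma). In L-P/C-HF mice its sign was thus opposite to that of Ass1/Gm5424. Over 15 alternatives its value there ran from -0.43 to -0.10 and passed in none. In H-P/C-HF mice it passed in 5 of 15 alternatives. For Cps1 the values were 0.05 (-0.08 to 0.18) and -0.11 (-0.24 to 0.03), and for Nags -0.01 (-0.17 to 0.16) and 0.03 (-0.13 to 0.20). Without L-P/C-HF 2-d replicate 9 the L-P/C-HF value was 0.07 for Ass1/Gm5424 and turned to -0.03 for Cps1.

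**Figure D4:**
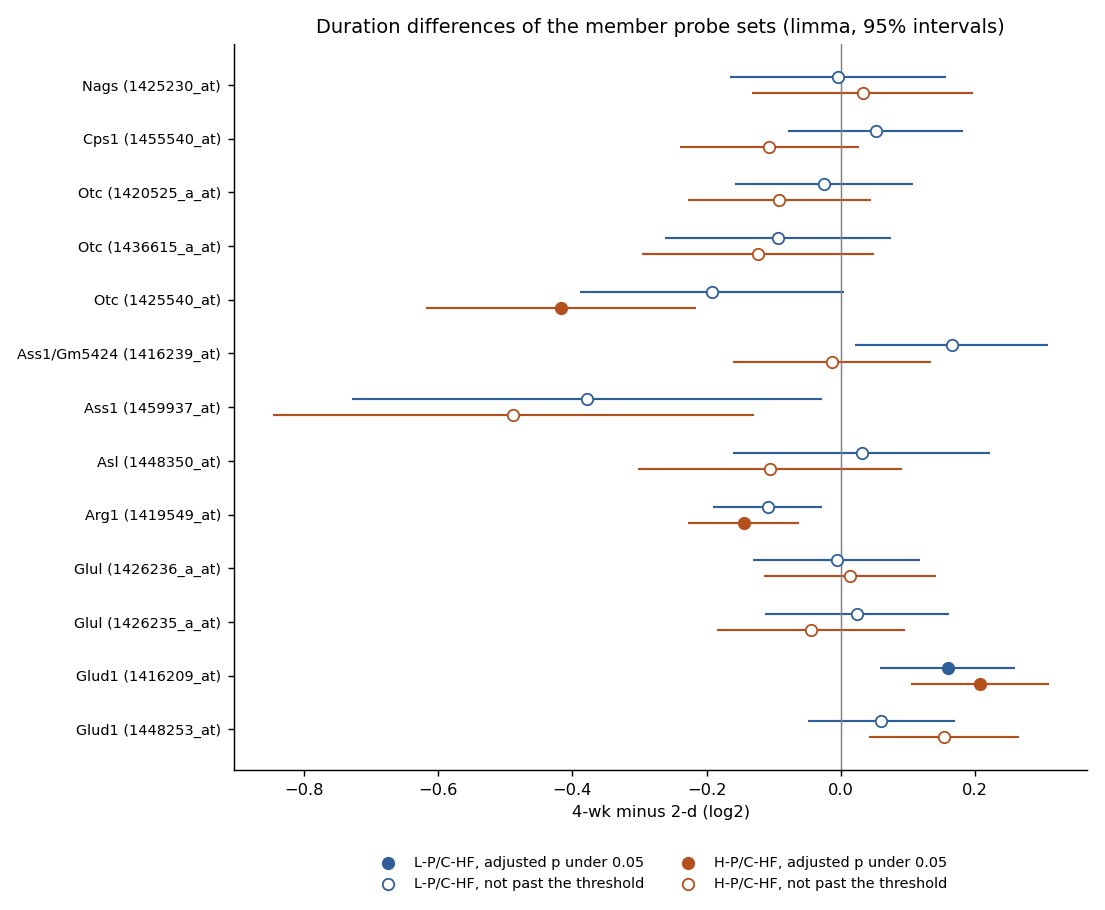
4-wk minus 2-d on the log2 scale (horizontal axis) for the 13 member probe sets in each diet, with 95% intervals from limma and filled points where the adjusted p was under 0.05. Filled points are Glud1 above zero in both diets, and Arg1 and the dimmest Otc probe set below zero in H-P/C-HF mice.

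Among the linked genes, Slc25a13, the aspartate and glutamate carrier that supplies aspartate to Ass1, rose with duration in both diets, by 0.47 in L-P/C-HF (adjusted p = 0.00124, limma) and 0.36 in H-P/C-HF mice (adjusted p = 0.0187). Hnf4a, a hepatocyte regulator that acts on several cycle genes, fell by 0.29 in L-P/C-HF and by 0.30 in the other diet (log2, adjusted p = 0.00068 and 0.000565). Of the 16 Kupffer cell and macrophage markers, 14 passed with a rise in L-P/C-HF and 10 in H-P/C-HF (adjusted p under 0.05, limma), and the medians were 0.91 and 0.72. C1qb, a complement subunit of macrophages, rose by 1.65 and 1.47. Of 11 sinusoidal endothelial markers, 10 and 11 passed with a rise (medians 0.66 and 0.54), and of 11 stellate cell markers, 7 and 6 did (medians 0.49 and 0.44). Of all 18193 genes, 4.76% and 4.16% passed with a rise. The duration values of these linked genes and cell markers are from the fit without the RNA measure, which also moved with duration. Their values with it as a covariate are not given here. The part of these cells in the member values was not tested.

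The members were then compared from mouse to mouse inside a group, over the deviations of 47 mice from their group means, to see which of the genes varied together. Of 36 pairs 33 were positive. Pairs of other genes were not counted, so whether this number or those that follow are unusual for these arrays was not tested. By a permutation test within groups, two-sided and adjusted over the 36 pairs, 11 passed by Pearson's r and 6 of these also by Spearman's rho. The highest rho was that of Ass1/Gm5424 with Asl, the successive cytosolic enzymes, at r = 0.69 and rho = 0.66 (p = 1e-05 for rho, the smallest the permutations could give, adjusted p = 0.00036 for both). It was 0.56 without the 2 mice farthest out, and between 0.40 and 0.80 in the 4 groups.

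Cps1 and Otc, the successive mitochondrial enzymes, had r = 0.77 and rho = 0.52 (adjusted p = 0.00036 and 0.00156), and r = 0.47 without the 2 mice farthest out. Cps1 and Ass1/Gm5424 had the highest r, 0.86, with rho = 0.42 (adjusted p = 0.00576 and 0.0459). That relation rested on L-P/C-HF 2-d replicate 9, since without it r was 0.35 and no longer passed (adjusted p = 0.0713). Asl and Arg1 had r = 0.55 and rho = 0.53 (adjusted p = 0.0018 and 0.00166) and 0.43 without the 2 mice farthest out. Otc and Glul had r = 0.45 and rho = 0.54 (adjusted p = 0.00576 and 0.00166), and 0.56 without those 2. The sixth pair, Cps1 and Arg1, had r = 0.47 and rho = 0.39 (adjusted p = 0.00672 and 0.0222), and 0.32 without replicate 9, where it no longer passed (adjusted p = 0.0713).

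Without replicate 9, over 46 mice, 6 pairs passed by both measures, and 4 of them were among the 6 above. The pairs that came in were Ass1/Gm5424 with Glud1 at r = 0.62 (adjusted p = 0.00036) and Otc with Nags at r = 0.52 (adjusted p = 0.00605). The dim Ass1 probe set did not vary with Ass1/Gm5424 (r = 0.10, rho = -0.01), although both carry the Ass1 symbol. All the levels of a mouse come from 1 array, so a shared array quality enters every pair, and its part was not tested.

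**Figure D5:**
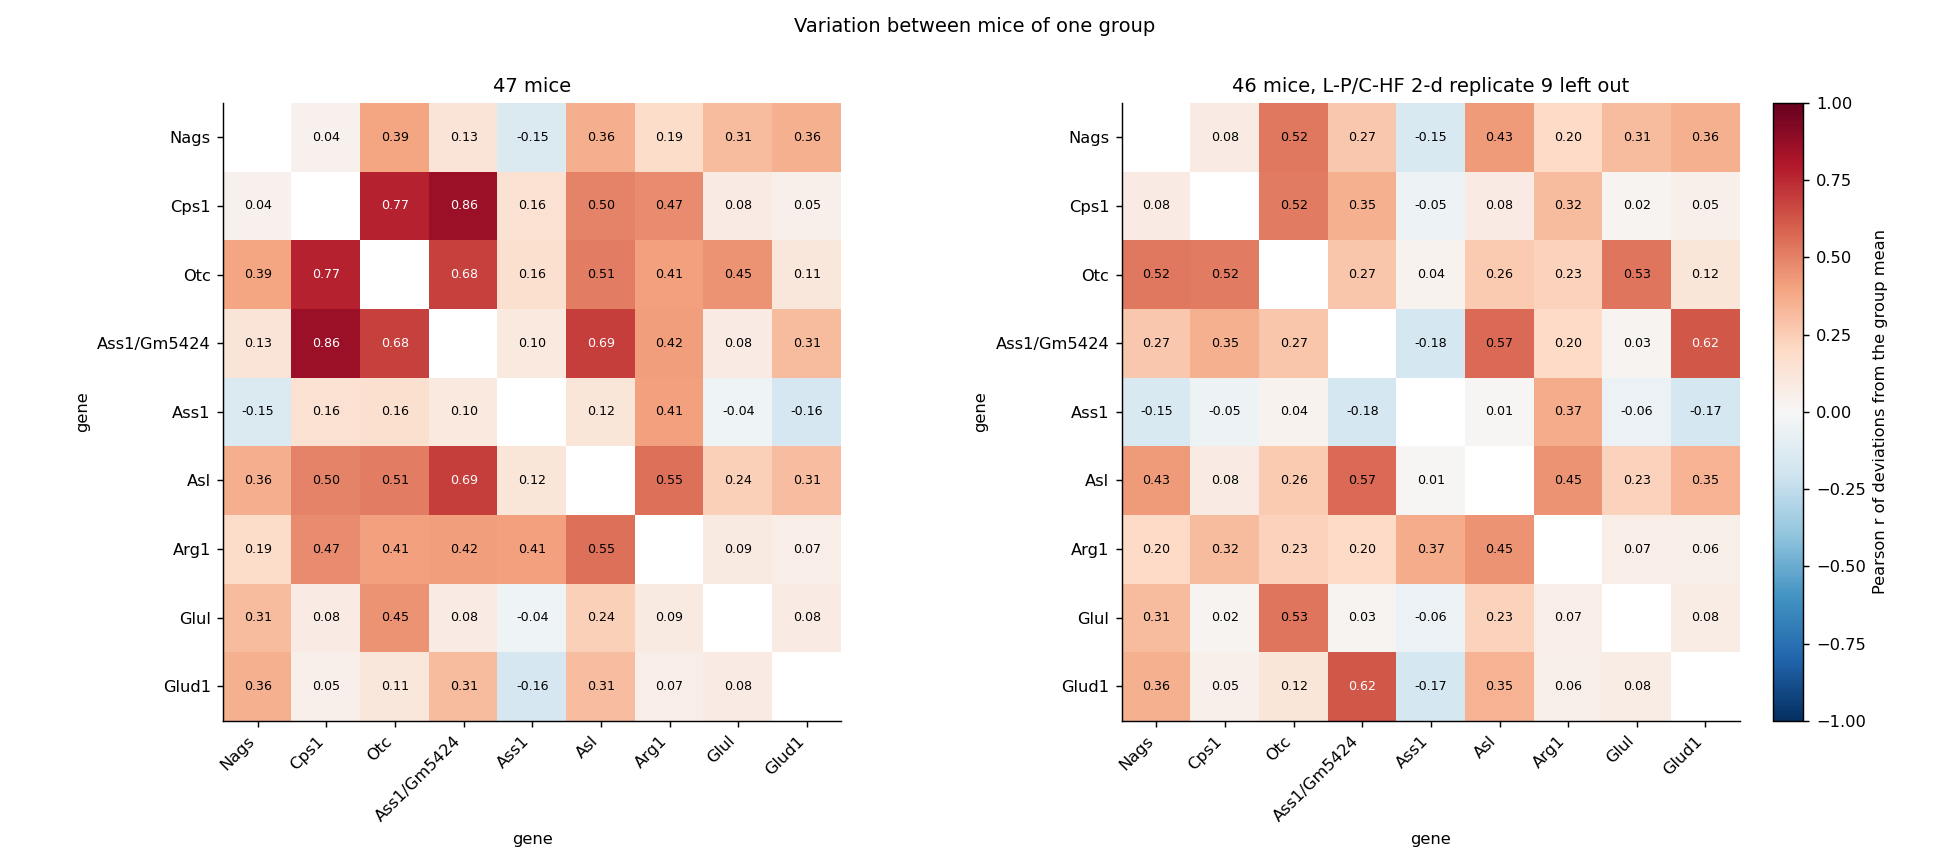
Pearson's r (colour and printed value) between the deviations from the group mean of each pair of genes over 47 mice, left, and over 46 mice without L-P/C-HF 2-d replicate 9, right. Cps1 with Ass1/Gm5424 goes from 0.86 to 0.35 between the panels, while Ass1/Gm5424 with Asl goes from 0.69 to 0.57.

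Over all 47 mice, group differences included, the genes closest in pattern to each member were named from 11917 genes by Pearson's r, as a description. Upp2 (r = 0.89), Hgd (0.86) and Hpd (0.86) were closest to Cps1, the latter pair being enzymes of tyrosine breakdown. Without L-P/C-HF 2-d replicate 9 the values for Cps1 were 0.68, 0.71 and 0.63. Hgd (0.85), Slc38a4 (0.85) and Cps1 (0.85) were closest to Ass1/Gm5424, and without replicate 9 these were 0.70, 0.80 and 0.57. Ugt2a3 (0.87), Rarres2 (0.87) and Mettl7a1 (0.85) were closest to Otc. Sult1a1 (0.84), Bnip3 (0.84) and Pdk2 (0.83) were closest to Asl. Itch (0.76), Pptc7 (0.75) and Rab3gap1 (0.72) were closest to Arg1, and Nudt19 (0.82), Jak1 (0.82) and Atp6v1f (0.81) to Nags. Ywhag (0.78), Smim4 (0.77) and Dgkz (0.77) were closest to Glul. Glo1 (0.91), Rab1a (0.88) and Hadha (0.87) were closest to Glud1. Klf9 (0.67), Ankrd33b (0.67) and Pim3 (0.63) were closest to the dim probe set of Ass1 alone.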

How the data were processed

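Liver RNA was hybridised to Affymetrix mouse genome arrays. The deposited values, 48 arrays of 45101 probe sets, are log2 levels, which the authors made by RMA (version not given in the sources used here), which corrects background, normalizes the arrays and summarizes the probes of each set. Their range gave the log base, and they carry no read depth, so precision is set by the number of arrays. HPHC in the labels was read as H-P/C-HF and HFHC as L-P/C-HF, and replicates are separate mice.

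One array was left out as in the study, and 64 control probe sets were dropped. limma 3.58.1 in R 4.3.3 fitted 1 coefficient per group over 47 arrays (lmFit, eBayes with a trend), two-sided, with Benjamini-Hochberg adjustment over 45037 probe sets at 0.05. The Global Error Assessment of the study was not used. Gene symbols were those of the platform annotation, where 34945 probe sets had 1 symbol, 932 several and 9160 none. Each gene is given by its brightest probe set under the symbol alone, other probe sets of a member being added where stated, and of each list the genes that passed or had the smallest p are named. The 15 gene lists beside the members named 214 genes, 191 matched. Relations used 100000 permutations within groups (Python 3.11.15, numpy 2.4.6). The members and lists were chosen with earlier results of these data known. Lists of sinusoidal, stellate, cholangiocyte, lymphocyte, erythroid, muscle, adipocyte, acinar and kidney genes had 0 called in each diet comparison. The scripts were tested on simulated data. The 12 alternatives changed the arrays used, the scaling, the filter, the fit, the covariate, the block and the probe set summary, and 3 arrays were also left out singly after seeing the data.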

Additional observations from a re-analysis of the deposited data

How the results depend on the processing

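Of the results of the fits and relations with an alternative, 63 counts stayed within 1.5 times, 631 single values kept direction and side of the threshold, and 17 single values lost their call, 9 gained one and 5 turned. Those that turned were all of Nags, whose difference was near zero: at 2-d -0.0083 with the left-out array included, -0.0204 with array weights and -0.0037 with centring on array medians, at 4-wk -0.0017 with array weights, and averaged -0.0111 with array weights. The number of members called at 2-d went from 1 to 0 with centring on array medians, a separate fit, an ordinary ANOVA, the replicate block and without L-P/C-HF 2-d replicate 1. Averaged over both durations it went from 1 to 2 under cyclic loess. For duration in L-P/C-HF mice it went from 1 to 0 with the left-out array included, centring, a separate fit, ANOVA, the RNA measure as a covariate and without replicate 1, and to 2 under cyclic loess, with the brighter probe sets alone and without replicate 9. For duration in H-P/C-HF mice it went from 3 to 5 with replicates 1, 9 and 12 of the L-P/C-HF groups also left out and with array weights, to 4 with cyclic loess, a separate fit, ANOVA and without replicate 1 of L-P/C-HF 2-d, to 2 with centring, and to 0 with the covariate. Why these numbers moved was not tested.

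The replicate numbers of the labels were not shown to pair the mice: between groups the correlation of same-numbered mice ran from -0.62 to 0.60, and 3 of 47 mice matched best with their own number. The median correlation was 0.27 between the 2-d groups and -0.03 between the 4-wk groups. It was 0.03 between the L-P/C-HF groups and -0.04 between the H-P/C-HF groups. Why the 2-d groups stood higher was not tested. With the replicate number as a block, 0 members were called at 2-d in place of 1, and Ass1/Gm5424 was 0.37 (adjusted p = 0.0721, limma). A dim probe set limits what could be seen of Ass1 alone.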
